A study of Danio rerio with 9 samples.

Results

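The genes described here make, sense and move cholesterol: the enzymes of the mevalonate and sterol routes, the proteins that control SREBP, and the proteins of sterol uptake, storage and export. They were taken from a written list of 40 genes. The rule uses no measured value, but the list was chosen with earlier results of these data known. The genes were matched by symbol to 42 of the 32055 gene identifiers in the counts, since *sqle* and *npc2* were each carried by a pair of identifiers. Of these, 36 had enough counts to be tested, among 16962 identifiers tested in all. Expression was measured by RNA sequencing of pooled whole zebrafish embryos in 3 groups of 3 libraries each. The first group were maternal-zygotic *mondoa* mutants (MZ*mondoa*) with affected epiboly, in which the movement that spreads the cell layers over the yolk was visibly disturbed. The second were MZ*mondoa* mutants with unaffected epiboly, sorted by eye from the same kind of embryo, and the controls were wild-type embryos. Both mutant groups carried the single CRISPR-Cas9 allele *ka405*, a small frameshift deletion in *mondoa* (gene symbol *mlxip*), present in the mother's germ line and in both alleles of the embryo, so that the maternal transcript carries it too. The gene encodes MondoA, a transcription factor that responds to glucose phosphates. All libraries carry a labelled stage of 5 hours post fertilization, which disagrees with the later sampling described in the methods of the study, and the labels do not say whether libraries of a group came from separate crosses. The p-values therefore measure the spread between these pools.

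Cholesterol is built from acetyl-CoA. The first enzymes make mevalonate, the next convert it into farnesyl diphosphate, which also feeds ubiquinone, dolichol and protein prenylation, and the last close and trim the sterol rings. In vertebrate cells that lack sterol, the SCAP protein carries SREBP transcription factors from the endoplasmic reticulum to the Golgi, where they are cut, enter the nucleus and switch on genes of synthesis and uptake, whereas INSIG proteins hold SCAP back when sterol is plentiful. Before the liver forms, the zebrafish embryo takes its lipid from the yolk through the yolk syncytial layer, a multinucleate layer beneath the blastoderm.

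The *mondoa* transcript (ENSDARG00000059474) was at 15.0, 16.1 and 12.8 CPM (counts scaled to a common library size) in the affected and at 21.0, 20.8 and 13.0 CPM in the unaffected mutant libraries, against 111, 113 and 51.9 CPM in wild-type. Its log2 fold change was -2.65 ± 0.29 in the affected (edgeR adjusted p = 0.000252) and -2.33 ± 0.29 in the unaffected mutants (edgeR adjusted p = 0.000963), and the mutant and wild-type libraries did not overlap. Libraries held 27567897 to 39299268 exonic counts. A zero count allows up to 3 counts, or 0.0762 to 0.108 CPM depending on the library, and this limit covers counting error only.

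In the mutants with affected epiboly, 13 of the 36 tested members changed relative to wild-type at an adjusted p under 0.05 in edgeR's quasi-likelihood test, adjusted over all genes tested. Of these, 10 rose and 3 fell. That is 36.1% of the members, and 30.3% of all genes tested changed in the same comparison (15.4% rose and 15% fell). In the mutants with unaffected epiboly, 4 members changed relative to wild-type (3 rose and 1 fell), which is 11.1%, beside 9.6% of all genes (4.65% rose and 4.95% fell). Between affected and unaffected mutants, 5 members changed (4 rose and 1 fell), or 13.9%, beside 2.99% of all genes (1.88% rose and 1.11% fell). Leaving out a library gave 0 to 4 members and 42 to 511 genes in this last comparison, and the fit with the replicate number as a block gave 7 members and 1399 genes (8.25%). The median log2 fold change of the members was 0.17, 0.13 and 0.04 in these 3 comparisons, against -0.02, -0.01 and -0.01 over all genes. Both comparisons with wild-type share the control libraries and both comparisons of the affected mutants share theirs, so the counts are not independent of each other. In pools of whole embryos, fewer cells of a type and less RNA per cell cannot be told apart. The remaining 23 tested members changed in none of the comparisons.

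**Figure D1:**
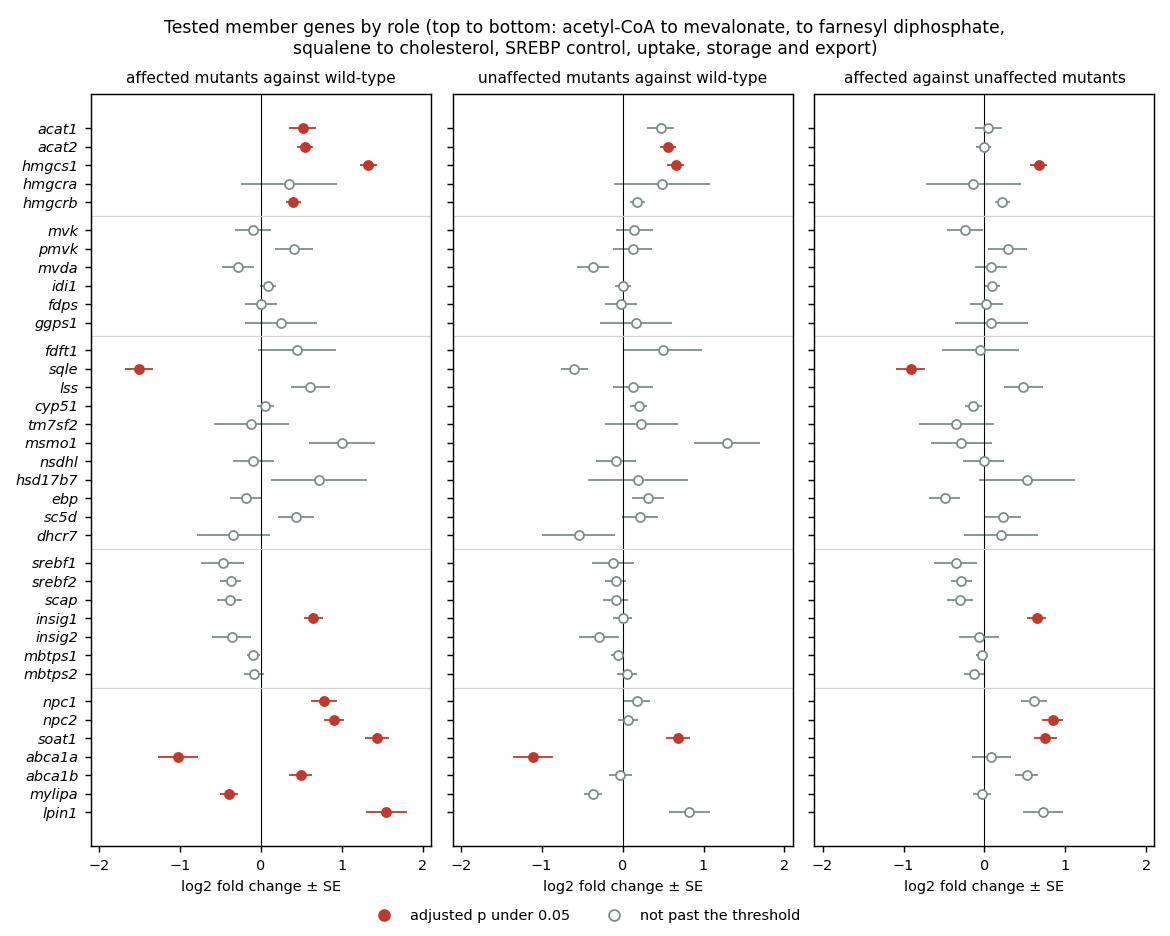
Log2 fold change of each of the 36 tested members (points) with its standard error (bars) in the 3 comparisons, with genes grouped by role from the first enzymes at the top to sterol uptake, storage and export at the bottom. Filled points passed an adjusted p of 0.05 in edgeR's quasi-likelihood test. In the affected mutants against wild-type, all 7 tested genes grouped under uptake, storage and export (of 11 listed, *lpin1* among them) are filled. None of the 6 genes between mevalonate and farnesyl or geranylgeranyl diphosphate are. In that comparison 30.3% of all genes tested passed, and differences between roles were not tested.

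By role, calls are to be read beside the shares of all genes given above (30.3%, 9.6% and 2.99% in the 3 comparisons), and differences between roles were not tested. Among the enzymes that make mevalonate, 4 of 5 rose in the affected mutants and 2 of 5 in the unaffected mutants. Among the 6 enzymes from mevalonate to farnesyl and geranylgeranyl diphosphate, 0 changed in any comparison by edgeR. Of them, 0 had an unadjusted p under 0.05 and 0 were called by DESeq2. Among the 11 tested enzymes from squalene synthase to cholesterol, 1 fell in the affected mutants. Among the 7 genes of SREBP control, 1 rose in the affected mutants. Of the 7 tested genes grouped under uptake, storage and export, 5 rose and 2 fell in the affected mutants. In the unaffected mutants 1 rose and 1 fell. This group includes *lpin1*, a phosphatidate phosphatase, which was among those that rose in the affected mutants.

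Among the first enzymes, *hmgcs1* (ENSDARG00000103025), the cytosolic HMG-CoA synthase, showed the largest change. It was at 67.7, 56.4 and 60.4 CPM in the affected and 41.1, 38.3 and 36.7 CPM in the unaffected mutants, against 25.9, 22.0 and 25.6 CPM in wild-type. The 3 groups did not overlap and stood in the order affected, unaffected, wild-type. In log2 fold change it stood 1.33 ± 0.10 (SE, n = 3 each) higher in affected mutants than in wild-type (edgeR adjusted p = 4.96e-05) and 0.66 ± 0.10 higher in unaffected mutants (edgeR adjusted p = 0.0036). Affected exceeded unaffected mutants by 0.67 ± 0.10 (edgeR adjusted p = 0.0143). That call did not hold without affected replicate 1 (adjusted p = 0.0591), unaffected replicate 1 (0.0560) or unaffected replicate 3 (0.0529).

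HMG-CoA reductase, the enzyme that statins inhibit and the main point of control of the route, was counted under a pair of genes. *hmgcrb* (ENSDARG00000105206) was at 82.6, 78.7 and 79.2 CPM in the affected and 73.8, 65.3 and 67.5 CPM in the unaffected mutants, against 57.5, 56.7 and 67.7 CPM in wild-type. All affected libraries lay above all wild-type libraries, with a log2 fold change of 0.40 ± 0.09 (edgeR adjusted p = 0.00927), whereas the unaffected libraries overlapped those of wild-type (log2 fold change 0.18, adjusted p = 0.253). *hmgcra* (ENSDARG00000052734) had only 6 to 26 counts per library. It was at 0.551, 0.235 and 0.815 CPM in the affected and 0.862, 0.211 and 0.695 CPM in the unaffected mutants, against 0.185, 0.582 and 0.483 CPM in wild-type, and a standard error of 0.59 in affected mutants against wild-type left any difference within its spread (edgeR adjusted p = 0.69).

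The thiolases that condense acetyl-CoA were counted under 2 genes. *acat2* (ENSDARG00000007127) was at 19.2, 19.1 and 17.7 CPM in the affected and 17.6, 19.8 and 18.9 CPM in the unaffected mutants, against 13.2, 12.5 and 12.5 CPM in wild-type. The mutant groups lay together and both lay wholly above wild-type. Relative to wild-type, the log2 fold change was 0.55 ± 0.10 in affected mutants (edgeR adjusted p = 0.00243) and 0.56 ± 0.10 in unaffected mutants (edgeR adjusted p = 0.00567), and the difference between the mutant groups was -0.01 (95% interval -0.22 to 0.20). The related *acat1* (ENSDARG00000045888), which encodes the mitochondrial thiolase, was at 3.86, 4.10 and 3.29 CPM in the affected and 3.52, 3.48 and 3.88 CPM in the unaffected mutants, against 2.95, 2.47 and 2.44 CPM in wild-type. In unaffected mutants its log2 fold change was 0.47 ± 0.17 (edgeR adjusted p = 0.112). Its rise of 0.52 ± 0.17 in affected mutants (edgeR adjusted p = 0.0408) was lost in 7 of 13 alternative fits, with adjusted p-values over all of them from 0.0338 to 0.125, and the fits that lost it included those without affected replicate 1 or 2 and those without wild-type replicate 2 or 3.

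No enzyme from mevalonate to farnesyl and geranylgeranyl diphosphate passed the test in any comparison, and the precision differed between them. *idi1* (isopentenyl diphosphate isomerase) averaged 314 ± 13.2 CPM in the affected and 295 ± 17.6 CPM in the unaffected mutants, against 295 ± 35.0 CPM in wild-type (SD, n = 3 each). *fdps*, the farnesyl diphosphate synthase, averaged 25.9 ± 2.15, 25.4 ± 6.98 and 25.8 ± 5.59 CPM in affected, unaffected and wild-type libraries. For *idi1*, the log2 fold change of 0.09 in affected mutants against wild-type had a 95% interval of -0.13 to 0.31. The other 4 were mevalonate kinase (*mvk*), phosphomevalonate kinase (*pmvk*), mevalonate diphosphate decarboxylase (*mvda*) and geranylgeranyl diphosphate synthase (*ggps1*). Their log2 fold changes in affected mutants were -0.10, 0.41, -0.28 and 0.25, and in unaffected mutants 0.14, 0.13, -0.36 and 0.16, with adjusted p-values of at least 0.215. The affected libraries of *pmvk* lay above all its wild-type libraries, and the 95% interval of *ggps1* in affected mutants against wild-type ran from -0.74 to 1.24.

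Squalene epoxidase was the only enzyme of the later steps that changed, and it went down while the first enzymes went up. The *sqle* identifier with enough counts (ENSDARG00000079946) was at 2.31, 2.25 and 2.51 CPM in the affected and 3.99, 4.43 and 4.89 CPM in the unaffected mutants, against 6.03, 5.99 and 8.08 CPM in wild-type. The groups did not overlap, and the order was the reverse of that of *hmgcs1*. A log2 fold change of -1.51 ± 0.18 in affected mutants against wild-type (edgeR adjusted p = 0.000339) kept its call in all 13 alternatives. In unaffected mutants it was -0.59 ± 0.17 (edgeR adjusted p = 0.0534, or 0.0234 when the fit took the replicate number as a block). Between affected and unaffected mutants it was -0.91 ± 0.18 (edgeR adjusted p = 0.0286), a call lost without affected replicate 1, 2 or 3 or without unaffected replicate 1 or 3, at adjusted p-values up to 0.113. Which of the *sqle* identifiers is *sqlea* was not determined, and the other (ENSDARG00000063319) stayed at 2 counts or fewer per library, too few for a test.

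*nsdhl* (ENSDARG00000099315), which encodes a dehydrogenase that takes part in removing methyl groups from the sterol ring, was at 1.93, 1.48 and 1.79 CPM in the affected and 1.80, 1.72 and 1.71 CPM in the unaffected mutants, against 2.15, 2.18 and 1.22 CPM in wild-type. Wild-type spanned the range of both mutant groups. Affected mutants differed from wild-type by -0.09 on the log2 scale (95% interval -0.65 to 0.46, edgeR adjusted p = 0.816) and unaffected mutants by -0.08 (95% interval -0.64 to 0.47, edgeR adjusted p = 0.876). Both signs turned without wild-type replicate 1 or 2, and the first also without affected replicate 2. At 44 to 75 counts per library, a difference within these intervals was not detectable.

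The other 9 tested enzymes from squalene synthase onward did not pass the test. *cyp51*, the lanosterol demethylase, was well covered, with 48.5 ± 2.86 CPM in the affected and 53.4 ± 6.09 CPM in the unaffected mutants against 46.6 ± 3.88 CPM in wild-type. *lss*, which closes the ring as lanosterol synthase, lay higher in all affected libraries (1.48, 1.01 and 1.32 CPM) than in all unaffected (0.862, 0.879 and 0.979 CPM) and all wild-type libraries (0.923, 0.727 and 0.839 CPM). Against wild-type it had a log2 fold change of 0.61 ± 0.24, with an edgeR adjusted p of 0.0803. *msmo1*, a sterol methyl oxidase, likewise lay above wild-type in both mutant groups without overlap, but at 4 to 16 counts per library, and its edgeR adjusted p-values were 0.0924 and 0.0744. *dhcr7*, which encodes a late-acting sterol reductase, was set apart by its spread within wild-type, at 7.14, 3.05 and 15.0 CPM, against 4.53 to 8.41 CPM over the 6 mutant libraries. The other 5 were squalene synthase (*fdft1*), the reductase *tm7sf2*, the ketosteroid reductase *hsd17b7*, the sterol isomerase *ebp* and the desaturase *sc5d*. Their log2 fold changes in affected mutants against wild-type were 0.44, -0.12, 0.72, -0.18 and 0.44, and *fdft1*, *tm7sf2* and *hsd17b7* averaged under 1 CPM in every group.

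**Figure D2:**
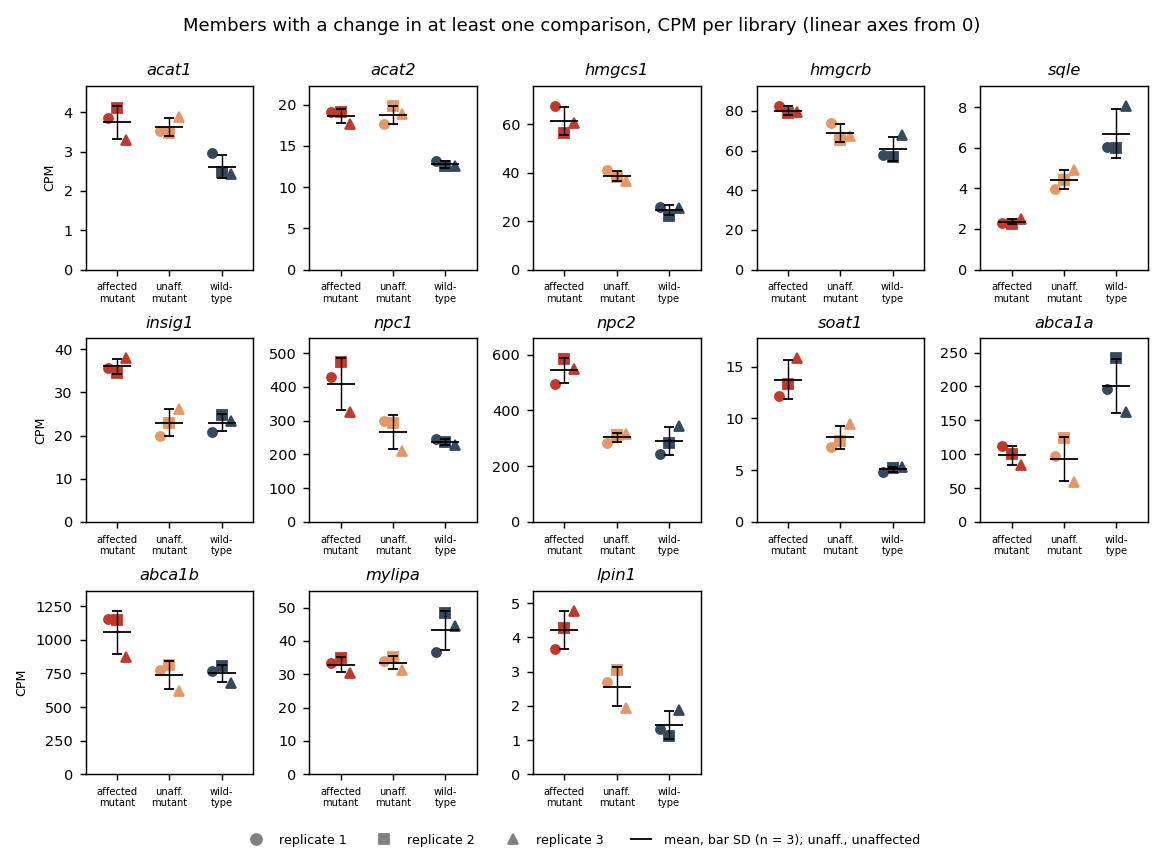
CPM of the 13 members that changed in at least one comparison, one panel a gene, with points for libraries (circle, square and triangle for replicates 1, 2 and 3), the group mean and SD (dash and bar, n = 3) and linear axes from 0. *hmgcs1*, *soat1* and *lpin1* step down from affected through unaffected mutants to wild-type with no overlap, and *sqle* steps the opposite way. The difference of *lpin1* between the mutant groups did not pass the test. *insig1* and *npc2* are high in the affected mutants while the unaffected mutants overlap wild-type.

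Among the genes grouped here under SREBP control, *insig1* alone changed. *lpin1*, which in mouse cells also restrains SREBP, was grouped with uptake, storage and export and is described below. *insig1* (ENSDARG00000010658), which retains SCAP in the endoplasmic reticulum and is itself a known SREBP target in mammals, was at 35.7, 34.5 and 37.9 CPM in the affected and 19.9, 22.9 and 26.1 CPM in the unaffected mutants, against 20.8, 24.7 and 23.5 CPM in wild-type. The affected libraries stood clear of all others, and the unaffected libraries spanned those of wild-type. It was 0.65 ± 0.12 higher on the log2 scale in affected mutants than in wild-type (edgeR adjusted p = 0.00281) and 0.65 ± 0.12 higher in affected than in unaffected mutants (edgeR adjusted p = 0.0229). The second of these calls was lost without affected replicate 1, 2 or 3 or without unaffected replicate 1, at adjusted p-values of 0.0561 to 0.0847. In unaffected mutants against wild-type the difference had a standard error of 0.12 and a 95% interval of -0.26 to 0.26.

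The other 6 genes of SREBP control all had log2 fold changes below 0 in affected mutants against wild-type, and none passed the threshold (edgeR, with 2 at an unadjusted p under 0.05 and 0 called by DESeq2). *srebf2* (ENSDARG00000063438), the SREBP gene most tied to cholesterol in mammals, was at 30.1, 30.7 and 27.01 CPM in the affected and 41.4, 33.0 and 32.5 CPM in the unaffected mutants, against 41.4, 39.7 and 32.4 CPM in wild-type. The affected libraries lay below all others, with a log2 difference from wild-type of -0.37 ± 0.13 (edgeR adjusted p = 0.0513, with a range of 0.0110 to 0.166 over 13 alternatives, 5 of them under the threshold). *scap* (ENSDARG00000018096) was at 9.20, 12.4 and 10.3 CPM in the affected and 15.4, 12.5 and 11.6 CPM in the unaffected mutants, against 14.9, 14.8 and 12.1 CPM in wild-type, with overlap (log2 fold change -0.38 ± 0.16, edgeR adjusted p = 0.0887). *srebf1* (ENSDARG00000067607), more tied to fatty acid synthesis, was at 3.34, 3.09 and 2.48 CPM in the affected and 4.78, 3.87 and 2.78 CPM in the unaffected mutants, against 5.54, 3.69 and 3.15 CPM in wild-type (log2 fold change -0.47 ± 0.26, edgeR adjusted p = 0.206). Its groups overlapped. The log2 fold changes of *insig2* and of the SREBP-cutting proteases *mbtps1* and *mbtps2* were -0.36, -0.09 and -0.08. *mbtps1* was the most precisely measured of these, with a 95% interval of -0.26 to 0.08.

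Transcripts of *npc1*, *npc2* and *soat1* each rose in the affected mutants. NPC1 and NPC2 pass cholesterol from degraded lipoprotein through the lysosomal membrane. *npc2* (ENSDARG00000090912) was at 496, 584 and 550.0 CPM in the affected and 285, 310 and 314 CPM in the unaffected mutants, against 242, 283 and 344 CPM in wild-type. The affected libraries stood apart and the unaffected ones lay within wild-type. On the log2 scale it was 0.91 ± 0.13 higher in affected mutants than in wild-type (edgeR adjusted p = 0.000803) and 0.84 ± 0.13 higher than in unaffected mutants (edgeR adjusted p = 0.0134), the second call being lost without affected replicate 2 (adjusted p = 0.0623) or unaffected replicate 1 (0.0597).

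*npc1* (ENSDARG00000017180) was at 429, 473 and 324 CPM in the affected and 299, 293 and 210 CPM in the unaffected mutants, against 247, 236 and 228 CPM in wild-type. On the log2 scale, *npc1* was 0.79 ± 0.16 higher in affected mutants than in wild-type (edgeR adjusted p = 0.00513). Affected libraries also lay above unaffected libraries, by 0.61 ± 0.16, with an edgeR adjusted p of 0.0723, which was 0.00788 with the replicate block. In every group replicate 3 was the lowest.

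*soat1* (ENSDARG00000062297) encodes the acyltransferase that turns free cholesterol into ester for storage. It was at 12.2, 13.3 and 15.8 CPM in the affected and 7.26, 7.81 and 9.41 CPM in the unaffected mutants, against 4.80, 5.20 and 5.26 CPM in wild-type, in order and with no overlap. For *soat1* the log2 fold change was 1.43 ± 0.15 in affected mutants against wild-type (edgeR adjusted p = 0.000182) and 0.68 ± 0.15 in unaffected mutants against wild-type (edgeR adjusted p = 0.0185). Without wild-type replicate 1, the second of these had an adjusted p of 0.0604. Between affected and unaffected mutants it was 0.75 ± 0.15 (edgeR adjusted p = 0.028), which did not hold without affected replicate 1, 2 or 3 or without unaffected replicate 1 or 2, at adjusted p-values up to 0.103.

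The ABCA1 transporters, which pass cholesterol to apolipoprotein outside the cell, moved in opposite directions in affected mutants. *abca1a* (ENSDARG00000074635) was at 111, 100.5 and 83.4 CPM in the affected and 97.0, 124 and 58.5 CPM in the unaffected mutants, against 196, 242 and 162 CPM in wild-type. Both mutant groups lay wholly below wild-type and overlapped each other. The log2 fold changes were -1.02 ± 0.24 in affected (edgeR adjusted p = 0.0108) and -1.11 ± 0.24 in unaffected mutants (edgeR adjusted p = 0.0191), the second call being lost when only the 6 libraries compared were fitted (0.0537), without unaffected replicate 1 (0.0623) or without wild-type replicate 2 (0.0582).

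Its paralogue *abca1b* (ENSDARG00000079009) was at 1153, 1147 and 871 CPM in the affected and 778, 816 and 617 CPM in the unaffected mutants, against 768, 805 and 682 CPM in wild-type. The affected libraries lay above all others. The rise of 0.49 ± 0.14 against wild-type (edgeR adjusted p = 0.0239) was lost without affected replicate 1 (0.0865) or 2 (0.0874) and without wild-type replicate 1 (0.0542) or 3 (0.0620). The difference of 0.52 ± 0.14 from unaffected mutants had an edgeR adjusted p of 0.077, and of 0.00348 with the replicate block. Reads that fit both paralogues equally were not counted, and how many were lost this way is unknown.

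*mylipa* (ENSDARG00000008859), whose mammalian counterpart marks the LDL receptor for degradation, was at 33.3, 34.8 and 30.4 CPM in the affected and 34.0, 35.2 and 31.2 CPM in the unaffected mutants, against 36.6, 48.3 and 44.5 CPM in wild-type. Both mutant groups lay below wild-type. The log2 fold change of -0.39 ± 0.11 in affected mutants (edgeR adjusted p = 0.0261) lost its call without any one of the affected replicates or without wild-type replicate 2 or 3, at adjusted p-values up to 0.0957. In unaffected mutants the log2 fold change was -0.37 ± 0.11 (edgeR adjusted p = 0.0737, and 0.0350 with the replicate block).

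*lpin1* (ENSDARG00000020239), a phosphatidate phosphatase that in mouse cells also restrains SREBP in the nucleus, had the largest rise of all members. It was at 3.65, 4.27 and 4.76 CPM in the affected and 2.69, 3.06 and 1.93 CPM in the unaffected mutants, against 1.32, 1.105 and 1.88 CPM in wild-type, in order and with no overlap. Its log2 fold change was 1.55 ± 0.25 in affected mutants (edgeR adjusted p = 0.00173) and 0.82 ± 0.26 in unaffected mutants (edgeR adjusted p = 0.0714, and 0.0313 by DESeq2). Between affected and unaffected mutants it was 0.73 ± 0.24, which did not pass the test (edgeR adjusted p = 0.146, and at least 0.0718 over 13 alternatives). With *hmgcs1*, *soat1* and *sqle*, *lpin1* made up the 4 members (11.1%) whose 3 groups stood in order without overlap. Such an order held for 5.36% of all genes tested (3.22% with affected mutants highest and 2.15% with affected mutants lowest).

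The LDL receptor gene *ldlra* (ENSDARG00000029476) was close to the detection limit, with 2, 7 and 8 counts in the affected and 3, 5 and 2 counts in the unaffected mutants, against 1, 2 and 4 counts in wild-type. It was not tested. The same held for *stard4*, a soluble sterol carrier, for *soat2*, a relative of *soat1*, for *mylipb*, and for the other identifiers of *sqle* and *npc2* (ENSDARG00000096979), whose counts stayed at or under 13 in every library.

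The 18 members whose affected and wild-type libraries did not overlap made up 50% of those tested, beside 45.1% of all genes (22.6% higher and 22.5% lower in affected mutants). For unaffected mutants and wild-type there were 10 (27.8%, beside 27.9%, of which 13.9% were higher and 14% lower in unaffected mutants), and for affected and unaffected mutants 12 (33.3%, beside 25.4%, of which 13.3% were higher and 12.1% lower in affected mutants). The share of separated members was thus near that of all genes in both comparisons with wild-type.

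Some members differed by replicate number in the same way in every group. Replicate 3 was the lowest library of all 3 groups for 7 members (19.4%, beside 13.1% of all genes tested), namely *ggps1*, *fdft1*, *srebf1*, *srebf2*, *npc1*, *abca1a* and *abca1b*. *ggps1* had 2.26 CPM in replicate 3 of the affected mutants against 4.34 and 5.45 CPM in the others, 1.86 against 5.06 and 4.43 CPM in the unaffected mutants, and 1.78 against 4.21 and 4.16 CPM in wild-type. For 6 members (16.7%, beside 13% of all genes) replicate 3 was the highest in every group, *soat1* and *sqle* among them. Replicate 1 was the lowest in every group for 5 members (13.9%, beside 5.75% of all genes), *npc2* and *soat1* among them. It was the highest for 3 (8.33%, beside 4.7%), *hmgcs1* among them. Replicate 2 was the lowest for 5 (13.9%, beside 7.08%), *hmgcrb* among them, and the highest for 2 (5.56%, beside 6.29%). The *mondoa* transcript was also lowest in replicate 3 of every group. What the replicate number stands for is not given in the labels.

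**Figure D3:**
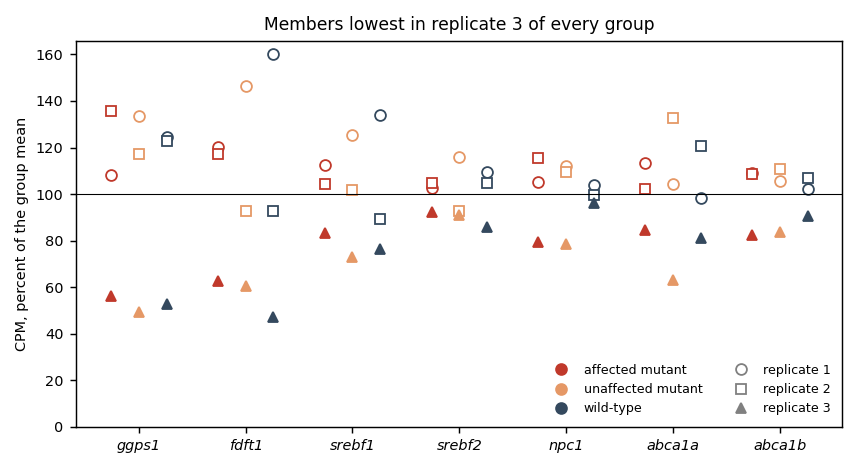
CPM of each library as a percentage of its own group's mean for the 7 members that were lowest in replicate 3 of every group. Filled triangles are replicate 3 and open symbols are replicates 1 and 2, with the group mean at 100%. The genes were chosen for this order, so all 21 triangles lie under both other libraries of their group by selection. Such genes made up 19.4% of the tested members, beside 13.1% of all genes tested.

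Genes of the same routes outside the 40 were examined through 4 written lists of 57 symbols, of which 45 identifiers were tested. In affected mutants against wild-type 7 rose and 8 fell, in unaffected mutants against wild-type 3 rose and 3 fell, and in affected against unaffected mutants 3 rose and 2 fell. Over all genes, 30.3%, 9.6% and 2.99% were called in these comparisons, and the lists were not tested against them. Genes described from these lists had a log2 fold change of at least 1 in size in affected mutants, except *ldlrb*, *rnf145b* and the other identifier of *gramd1b*.

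*rnf145* (ENSDARG00000002609), whose mammalian counterpart is a ubiquitin ligase of the endoplasmic reticulum that acts on SCAP and HMG-CoA reductase, was at 15.7, 15.4 and 15.5 CPM in the affected and 24.5, 25.9 and 27 CPM in the unaffected mutants, against 42.3, 42.0 and 39.1 CPM in wild-type. Its groups were evenly stepped with no overlap. Against wild-type the log2 fold change was -1.40 ± 0.09 in affected (edgeR adjusted p = 1.5e-05) and -0.67 ± 0.08 in unaffected mutants (edgeR adjusted p = 0.00105), and -0.73 ± 0.09 between affected and unaffected mutants (edgeR adjusted p = 0.0057). All 3 calls held in each of 13 alternatives. The paralogue *rnf145b* (ENSDARG00000032373) averaged 75.4 CPM in the affected and 71.1 CPM in the unaffected mutants, against 77.2 CPM in wild-type. Its log2 fold changes against wild-type were -0.04 in affected (edgeR adjusted p = 0.868) and -0.12 in unaffected mutants (edgeR adjusted p = 0.633). Between affected and unaffected mutants it was 0.08 (edgeR adjusted p = 0.794).

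*scarb1* (ENSDARG00000101557), the receptor that takes up cholesteryl ester from HDL, went the other way. It was at 66.2, 75.2 and 67.2 CPM in the affected and 48.3, 49.1 and 53.4 CPM in the unaffected mutants, against 27.7, 28.9 and 28.2 CPM in wild-type. Relative to wild-type, *scarb1* had a log2 fold change of 1.30 ± 0.09 in affected (edgeR adjusted p = 1.78e-05) and 0.83 ± 0.09 in unaffected mutants (edgeR adjusted p = 0.000347), with no overlap between any of the groups. The difference between affected and unaffected mutants was 0.47 ± 0.08 (edgeR adjusted p = 0.0229), a call lost without affected replicate 1 or 2 or unaffected replicate 1 or 3, at adjusted p-values of 0.0502 to 0.0962. *lcat* (ENSDARG00000099424), which esterifies cholesterol on lipoproteins, averaged 31.6 ± 3.96 CPM in the affected and 23.0 ± 0.388 CPM in the unaffected mutants, against 14.7 ± 0.710 CPM in wild-type (SD, n = 3 each). It rose by 1.11 in affected (edgeR adjusted p = 0.000144) and by 0.65 in unaffected mutants (edgeR adjusted p = 0.00511). Its difference of 0.46 ± 0.11 between affected and unaffected mutants did not pass the test (edgeR adjusted p = 0.0538, with a range of 0.00816 to 0.185 over 13 alternatives).

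The genes that fell included *ch25h* (ENSDARG00000045190), which makes an oxysterol that in mammals blocks SREBP. *ch25h* averaged 0.454 ± 0.0404 CPM in the affected and 0.735 ± 0.110 CPM in the unaffected mutants, against 1.36 ± 0.188 CPM in wild-type (SD, n = 3 each). Few reads were counted at these levels, and 3 libraries measure such small SDs poorly. Its log2 fold change was -1.58 ± 0.26 in affected mutants (edgeR adjusted p = 0.00176). That of -0.88 ± 0.24 in unaffected mutants (edgeR adjusted p = 0.0493) lost its call in 9 of 13 alternatives, with adjusted p-values of 0.0336 to 0.171, among them the fits without any one of the unaffected or wild-type replicates.

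*nceh1* (ENSDARG00000020427), a hydrolase of cholesteryl ester, and *gramd1b* (ENSDARG00000075383), a carrier of plasma membrane cholesterol, varied more between replicates. *nceh1* was at 5.58, 8.61 and 7.21 CPM in the affected and 9.12, 12.4 and 13.8 CPM in the unaffected mutants, against 9.05, 18.1 and 17.6 CPM in wild-type. The drop of *nceh1* in affected mutants, a log2 fold change of -1.06 ± 0.27 (edgeR adjusted p = 0.0151) lost its call without affected replicate 1 (0.0634) or wild-type replicate 2 (0.0506). *gramd1b*, also at low counts, was at 1.38, 0.572 and 0.470 CPM in the affected and 1.87, 0.879 and 2.43 CPM in the unaffected mutants, against 1.85, 5.38 and 3.30 CPM in wild-type. Its log2 fold change of -2.13 ± 0.52 in affected mutants (edgeR adjusted p = 0.0125) lost its call without affected replicate 2 (0.0565), and the other identifier of that symbol (ENSDARG00000074258) did not pass the test (log2 fold change 0.15, edgeR adjusted p = 0.772).

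*ldlrb* (ENSDARG00000026759), the other LDL receptor gene, is given beside the untested *ldlra* and was chosen after its values were seen. It was at 16.4, 14.7 and 17.2 CPM in the affected and 28.5, 27.9 and 25.8 CPM in the unaffected mutants, against 21.9, 19.5 and 17.4 CPM in wild-type. The unaffected mutants lay above all other libraries. Against wild-type its log2 fold change was -0.28 ± 0.11 in affected (edgeR adjusted p = 0.0879) and 0.49 ± 0.11 in unaffected mutants (edgeR adjusted p = 0.0246), and -0.77 ± 0.11 in affected against unaffected mutants (edgeR adjusted p = 0.0134). The call in unaffected mutants was lost with only the 6 libraries compared and without unaffected replicate 1 or 2 or wild-type replicate 2 or 3 (adjusted p up to 0.0902), and that between the mutant groups in 3, without affected replicate 1 (0.0591) or 2 (0.0714) or unaffected replicate 1 (0.0569).

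**Figure D4:**
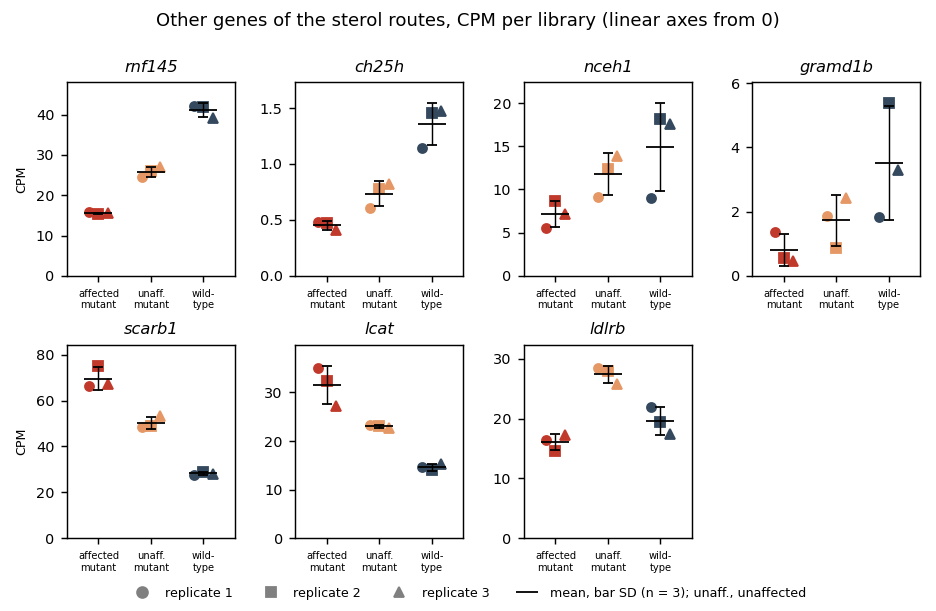
CPM of 7 genes of the sterol routes outside the 40, one panel a gene, with points for libraries (circle, square and triangle for replicates 1, 2 and 3), the group mean and SD (dash and bar, n = 3) and linear axes from 0. *rnf145* steps up from affected through unaffected mutants to wild-type, *scarb1* and *lcat* step down, and *ldlrb* is highest in the unaffected mutants. The difference of *lcat* between the mutant groups did not pass the test.

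The comparison of affected with unaffected mutants, in which all embryos carried the mutation, depended on which libraries were kept. Its 5 calls (*hmgcs1*, *sqle*, *insig1*, *npc2* and *soat1*) fell to 1 without affected replicate 1 or 2, to 2 without affected replicate 3 (*npc1* was gained there at an adjusted p of 0.0424), to 3 without unaffected replicate 3 and to 4 without unaffected replicate 2. Without unaffected replicate 1, 0 were called by edgeR, with 10 members at an unadjusted p under 0.05 and adjusted p-values of 0.0560 to 0.103 for the 5. The direction of all 5 was kept in each of these fits. With all 9 libraries, DESeq2 called 7 members and the fit with the replicate block 7, which added *npc1* and *abca1b*.

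Other features of the embryos moved with these results, and their counts of calls stand beside 30.3%, 9.6% and 2.99% of all genes called in the 3 comparisons. Of 13 tested identifiers of the yolk syncytial layer, 8 rose and 1 fell in affected mutants against wild-type and 5 rose in affected against unaffected mutants. Their summed level was 6887 to 7600 CPM in the affected and 5008 to 5556 CPM in the unaffected mutants, against 4736 to 5523 CPM in wild-type, with *ttr* at 0 throughout. In unaffected mutants against wild-type, 0 of them were called by edgeR, 5 had an unadjusted p under 0.05 and 3 were called by DESeq2. The regulator *hnf4a*, with the largest rise of the 13, averaged 120.1 CPM in the affected and 61.8 CPM in the unaffected mutants, against 43.0 CPM in wild-type. The 1 that fell, *apobb.2*, averaged 0.631 CPM in the affected and 1.34 CPM in the unaffected mutants, against 3.22 CPM in wild-type. Its log2 fold change in affected mutants against wild-type was -2.34 ± 0.43 (edgeR adjusted p = 0.00291).

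Of 9 tested identifiers of the enveloping layer, 2 rose and 2 fell in affected mutants against wild-type. In unaffected mutants against wild-type 1 rose. In affected against unaffected mutants 2 fell and 0 rose by edgeR, 8 had an unadjusted p under 0.05 and 6 were called by DESeq2. Their summed level was 9499 to 10803 CPM in the affected and 12534 to 14482 CPM in the unaffected mutants, against 10710 to 13910 CPM in wild-type. Of 12 tested identifiers of segmentation onset, 3 rose and 5 fell in affected mutants against wild-type (318 to 356, 365 to 374 and 383 to 414 CPM summed in affected, unaffected and wild-type libraries, with *mespbb* at 0). Of 10 tested maternal transcripts, 5 rose (119 to 140, 94.4 to 121 and 81.9 to 108 CPM summed in the same order). Their part in the changes of *insig1*, *npc1*, *npc2*, *soat1* and the other members was not tested.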

How the data were processed

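The deposited table holds unnormalised counts over exons. To make it, the authors aligned read pairs to the GRCz11 assembly and counted uniquely mapped pairs per Ensembl gene. The submitters' processing notes name STAR 2.4.0i and bcl2fastq 2.17.1.14. Libraries were stranded and depleted of ribosomal RNA per the protocol, although the labels name polyA RNA. Whether strand was used in counting is not given in the sources used here, so overlapping genes are uncertain. Counts over introns and libraries of other experiments were not used here.

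Symbols came from a table of Ensembl identifiers, which named 28986 of 32055. *hmgcrb* and *mylipa* were named by identifier in a supplementary table of the study, and *hmgcra* and *mylipb* were the remaining identifiers of those symbols. *mvda*, *abca1a* and *cyp51* were the only identifiers of MVD, ABCA1 and CYP51A1. Listed genes outside the members were matched exactly or without a final a or b. No sequence was analysed here, so the planned search of promoters for motifs was not run. Levels were not compared between genes, since counts were not scaled by length.

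Tests were run in edgeR 4.0.16 under R 4.3.3 (filterByExpr by group, TMM scaling, glmQLFit and glmQLFTest, two-sided), with all 9 libraries in a single fit of 3 groups and no covariates, and Benjamini-Hochberg adjustment over the 16962 genes tested in each comparison. The threshold was 0.05 and the biological coefficient of variation 0.176. Standard errors of log2 fold changes came from the coefficient and its F statistic, and 95% intervals from the standard error and the degrees of freedom of the fit. DESeq2 1.42.0 was an alternative. Every pair of libraries of a group differed beyond sampling noise (chi-square per degree of freedom 9.06 to 67.7), and each was entered as a replicate. Separate preparations of a single pool could differ in this way too, so the values do not show that the libraries came from independent crosses. The code was tested on simulated data.

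The labels number the replicates alike in each group. For unaffected mutants and wild-type, the correlations of same-numbered libraries, taken on deviations from the group mean, were 0.123, 0.141 and 0.268. For the pair of mutant groups they were 0.169, 0.236 and 0.462. All were over 0.1, a cut-off that was not itself tested, and the numbers were taken as pairing these groups. Numbers that pair the unaffected mutants with both other groups would pair affected mutants with wild-type too. The main fit did not use this pairing, so its p-values treat the libraries as unpaired. Results with the replicate number as a block are given as an alternative. The pairing comes from the counts, not from the labels.

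All members are accounted for by name. Values in every library are given for members called in any comparison and for *hmgcs1*, *hmgcra*, *hmgcrb*, *nsdhl*, *srebf1*, *srebf2*, *scap*, *insig1* and *ldlra*. Genes of other lists were to be named only where called with a log2 fold change of at least 1 in size, of which those of layers and stage are mostly given as sums. One gene of these lists, counted in the totals, is not reported here. The members and lists were chosen with earlier results of these data known.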

Additional observations from a re-analysis of the deposited data

How the results depend on the processing

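Over 16 alternative fits (DESeq2, RLE size factors, library size alone, no filter, at least 10 counts in every library, only the 6 libraries compared, the replicate block, and each library left out), 12 of 22 called pairs of a member and a comparison kept their call in every alternative that applied, 10 lost it in at least 1, and 0 changed sign. Members called numbered 10 to 12 in affected mutants against wild-type when a library was left out (13 with all), 3 to 5 in unaffected mutants against wild-type (4 with all), and 0 to 4 in affected against unaffected mutants (5 with all). With the replicate block, members called were 14, 6 and 7. In affected mutants against wild-type, same-numbered libraries correlated at 0.0805, 0.113 and 0.260, the lowest being under the cut-off of 0.1. Every one of 6 libraries still correlated best with its own number, against 5 of 6 for unaffected mutants and wild-type. By these correlations alone, the pairing of these groups is thus not settled. It would follow if the numbers pair the unaffected mutants with both other groups. In affected mutants against wild-type the block added *srebf2* (edgeR adjusted p = 0.0110). It added *sqle* and *mylipa* in unaffected mutants against wild-type and *npc1* and *abca1b* between the mutants, and it removed no call of a named member. Calls over all genes with the block were 2758 in unaffected mutants against wild-type (1628 without) and 1399 between the mutants (507 without). DESeq2 called 1205 between the mutants, and only the 6 libraries compared gave 965 in unaffected mutants against wild-type. Leaving out a library gave 3402 to 4903, 758 to 1797 and 42 to 511 such calls in the 3 comparisons.

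Among named members, signs turned only for log2 fold changes that had not passed the test, of which *hmgcra* in affected mutants against wild-type was the largest (0.35 with all libraries). *insig1* in unaffected mutants against wild-type (-1.67e-05) was 0.0077 with DESeq2, 0.0024 with RLE size factors and 0.0095 with no filter, and *acat1* between the mutants was -0.0055 with library size alone. Leaving out a library gave ranges across 0 in affected mutants against wild-type for *hmgcra* (-0.0849 to 0.72) and *nsdhl* (-0.32 to 0.0478). In unaffected mutants against wild-type it did so for *nsdhl* (-0.32 to 0.0560), *srebf1* (-0.31 to 0.15), *scap* (-0.21 to 0.0042), *insig1* (-0.0990 to 0.0954), *npc2* (-0.0504 to 0.20) and *abca1b* (-0.10 to 0.0881). Between affected and unaffected mutants it did so for *acat1* (-0.0164 to 0.14), *acat2* (-0.0531 to 0.0339), *hmgcra* (-0.58 to 0.22), *nsdhl* (-0.0902 to 0.0992), *abca1a* (-0.16 to 0.34) and *mylipa* (-0.0768 to 0.0263). The cause was not tested. Members under 1 CPM had standard errors up to 0.61, so that changes of that size were not detectable.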
